A study of Homo sapiens with 4 samples.

Results

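Transcripts of CYP3A drug-metabolizing enzymes and of ABC drug efflux transporters were followed in 8 genes: CYP3A4, CYP3A5, CYP3A7, ABCB1, ABCC2, ABCC3, ABCC5 and ABCC10. The genes were chosen by name, with earlier results of these data known. All 22 probe sets annotated to them were taken, out of 12626 on the array (8225 genes have a probe set with a single symbol). Of the 22, 15 carried 1 gene symbol and 7 carried several, among them all 4 annotated to CYP3A7. Values are log2 probe set summaries, and 9 of the 22 probe sets reached a floor of 5 on at least 1 array. Over the whole array 4710 of 12626 probe sets did, with 67 controls left out. Those 9 covered CYP3A5, ABCB1, ABCC3, ABCC5 and ABCC10, while the 13 others, including every probe set of CYP3A4, CYP3A7 and ABCC2, stayed under 5 on all 4 arrays.

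The cells were LS180, an established human colon carcinoma line that is widely used as a gut model for drug metabolism. The 4 groups were measured with 1 Affymetrix HG-U95Av2 array each: RBM35A+ polysomal RNA, RBM35A- polysomal RNA, RBM35A+ total RNA and RBM35A- total RNA. RBM35A+ cells were LS180 cells with a Tet-off RBM35A construct, kept without doxycycline for at least 6 days so that the RNA-binding splicing regulator RBM35A (now ESRP1) was expressed. RBM35A- cells were called parental and kept in doxycycline, and the labels do not say whether they carried the construct. Doxycycline and RBM35A state differed together and cannot be told apart. Polysomal RNA, which is RNA loaded with several ribosomes, came from sucrose gradients after cycloheximide washes, and total RNA came from a TRIZOL extraction. RNA fraction and extraction method cannot be told apart either. The study asked how RBM35A expression alters total and polysomal mRNA.

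With 1 array in each group, no difference between RBM35A+ and RBM35A- cells within a fraction has a replicate check. The number of arrays limits the precision of every value. The array annotation held 0 probe sets for RBM35A itself, so its level was not measured, and the state of the cells was taken from the labels. Of 13 colon epithelium markers on the array, 11 reached the floor, KRT20 and GUCY2C being the others. Of 10 hepatocyte markers 1 did (SERPINA1), and albumin did not. Of 5 haematopoietic markers 1 did (HBB), and of 6 fibroblast and endothelial markers 1 did (COL1A1). Among all 8225 genes with a probe set of a single symbol, 3588 did. The part of other cell types in the results was not tested beyond these levels. In bulk RNA, a difference in the number of cells of a type and a difference in RNA per cell cannot be told apart. Across fractions the arrays differed in RNA quality controls: at its 5′ end beta-actin gave 9.42 and 10.29 in polysomal RNA of RBM35A+ and RBM35A- cells, against 14.75 and 14.79 in total RNA. Its 3′ end gave 13.93 and 13.95 in polysomal RNA, against 14.20 and 14.25 in total RNA.

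CYP3A enzymes are haem monooxygenases of the endoplasmic reticulum that oxidise a large share of drugs as well as steroids and bile acids. CYP3A4 is the main form of adult liver and small intestine, CYP3A7 is the main fetal liver form, and CYP3A5 is expressed in gut and several other tissues. ABC transporters use ATP to pump substrates across membranes: ABCB1 (P-glycoprotein) exports hydrophobic drugs at the apical surface, and ABCC2 exports conjugated organic anions there. ABCC3 exports conjugates at the basolateral surface, ABCC5 exports nucleotide analogues and cyclic nucleotides, and ABCC10 exports a range of lipophilic compounds. The nuclear receptor PXR, which binds DNA with RXR, induces CYP3A4 and ABCB1 in gut and liver.

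The 3 CYP3A members lie in 1 gene cluster and have similar proximal promoters, which are shown because these genes gave unlike signals on the arrays. The windows run from 250 bases before to 50 bases after the start site, all on the minus strand of chromosome 7 in GRCh38.p14 (RefSeq): chr7:99679947-99680246 for CYP3A5, chr7:99784135-99784434 for CYP3A4 and chr7:99735147-99735446 for CYP3A7. Capitals mark the proximal everted repeat of CYP3A4, a known PXR binding element, and the most similar stretch in the other promoters.
CYP3A5: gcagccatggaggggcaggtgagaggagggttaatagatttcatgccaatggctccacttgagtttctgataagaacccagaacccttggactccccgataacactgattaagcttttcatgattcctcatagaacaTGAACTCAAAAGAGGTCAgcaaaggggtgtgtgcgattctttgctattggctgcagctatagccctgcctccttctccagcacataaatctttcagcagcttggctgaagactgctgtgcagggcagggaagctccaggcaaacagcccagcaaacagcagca
CYP3A4: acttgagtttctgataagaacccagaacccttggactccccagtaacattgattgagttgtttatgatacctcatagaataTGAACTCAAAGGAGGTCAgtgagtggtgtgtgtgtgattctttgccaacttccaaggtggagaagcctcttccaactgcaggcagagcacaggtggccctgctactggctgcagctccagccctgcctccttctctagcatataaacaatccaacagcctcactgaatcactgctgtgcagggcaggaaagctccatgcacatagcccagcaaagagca
CYP3A7: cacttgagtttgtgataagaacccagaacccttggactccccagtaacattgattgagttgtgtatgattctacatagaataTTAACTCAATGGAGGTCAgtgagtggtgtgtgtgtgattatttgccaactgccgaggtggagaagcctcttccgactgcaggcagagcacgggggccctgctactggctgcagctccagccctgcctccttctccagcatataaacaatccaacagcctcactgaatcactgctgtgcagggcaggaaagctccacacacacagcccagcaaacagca
The motif searched on both strands was TGAACTNNNNNNAGGTCA, whose fixed letters were taken from the CYP3A4 element. It matched 3 of 35116 promoter windows of 300 bases (0.00854%), and the windows of CYP3A4 and CYP3A5 were among them. Against the 18 bases of CYP3A4, counted from 1 at the 5′ end of the marked stretch, CYP3A5 had the single substitution G11A, in the spacer. CYP3A7 had G2T, in a fixed letter of the motif, and so no match, and A10T in the spacer. The CYP3A7 window is also that of the CYP3A7-CYP3A51P read-through gene. Over aligned bases, the CYP3A5 window was 85.9% identical to that of CYP3A4 and 84.3% to that of CYP3A7, while CYP3A7 and CYP3A4 shared 94.3%. Promoter windows were found for 7 of the 8 genes, and those of ABCB1, ABCC2, ABCC5 and ABCC10 held neither this motif nor its right-hand letters AGGTCA, which 13.8% of all windows hold. A match describes letters in a window and shows no binding in these cells.

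**Figure D1:**
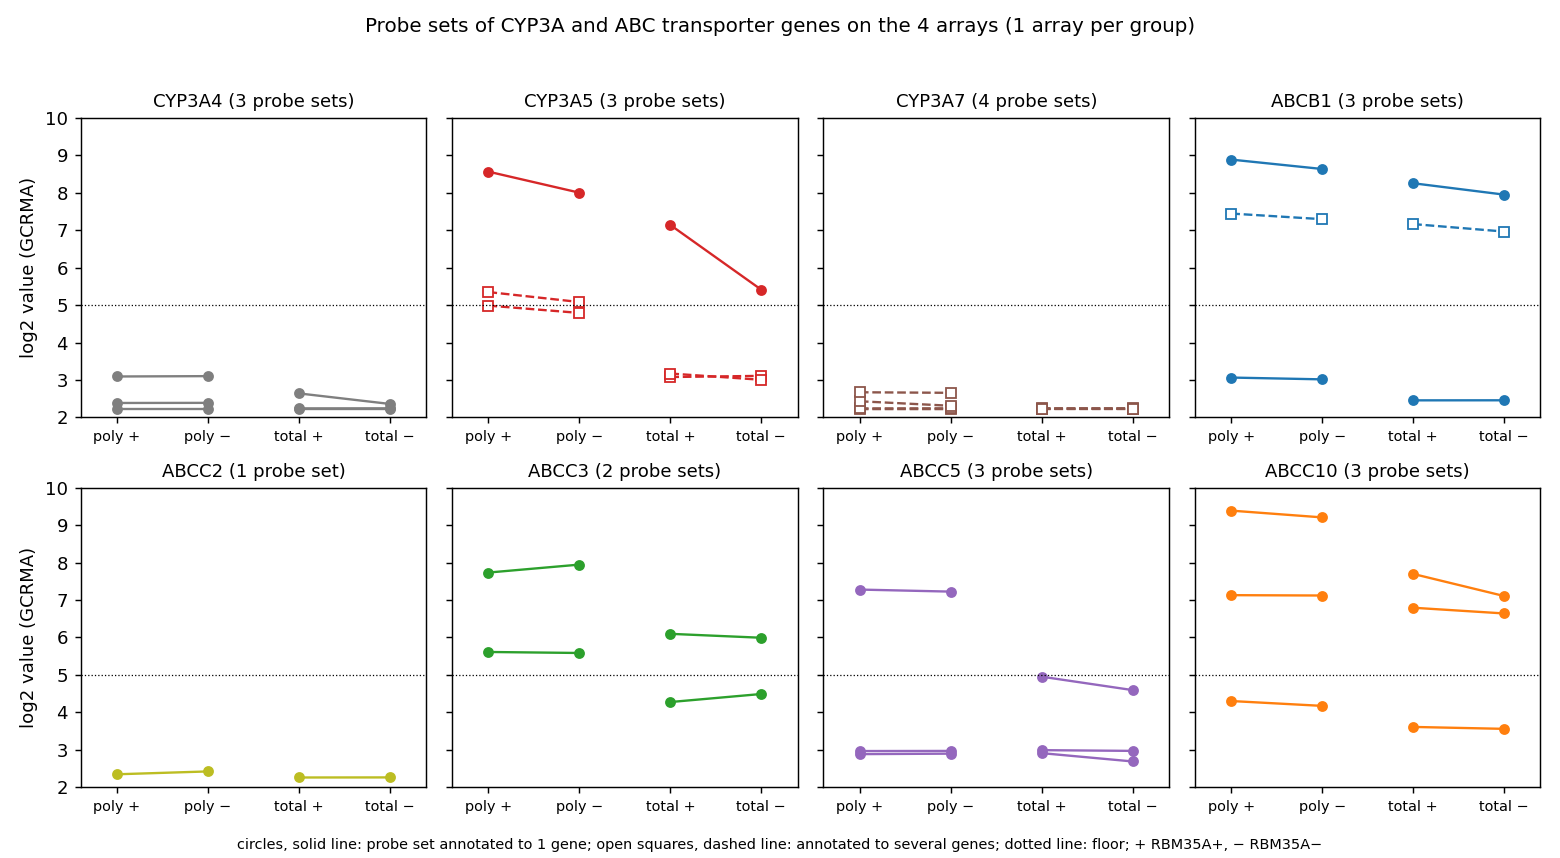
Log2 values (y axis) of every probe set of the 8 genes on the 4 arrays (x axis; poly, polysomal RNA; total, total RNA; +, RBM35A+; −, RBM35A−), with 1 array per group. Filled circles are probe sets annotated to 1 gene and open squares those annotated to several; lines join arrays of the same fraction and the dotted line is the floor of 5. The CYP3A5 probe set in total RNA shows the steepest line, at 7.14 in RBM35A+ against 5.41 in RBM35A- cells.

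CYP3A5 was the member with the largest difference. In total RNA, its probe set 38229_at read 7.14 in RBM35A+ cells and 5.41 in RBM35A- cells, a log2 difference of 1.73 or 3.32-fold. This was the highest difference (rank 1) of the 4346 probe sets with a value in total RNA. Some of the values ranked here and below are lower bounds, with 1 array under the floor, and could be larger. In polysomal RNA the same probe set read 8.57 in RBM35A+ cells and 8.00 in RBM35A- cells, a difference of 0.56 or 1.48-fold (rank 39 of 4355). The RBM35A+ array was thus the higher of its pair in both fractions, and the difference of differences, polysomal minus total, was −1.17.

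As a measure of error without replicates, the disagreement between probe sets of the same gene gave the SD of 1 probe set's difference. This SD was 0.192 in polysomal RNA (390 genes with at least 2 measured probe sets) and 0.203 in total RNA (411 genes). It reflects how probes differ and leaves out the spread among cultures. The CYP3A5 difference was 2.92 times this SD in polysomal RNA and 8.50 times in total RNA. An additive model of RBM35A state and RNA fraction, fitted with limma to all 4710 probe sets at the floor or above, gave CYP3A5 a mean difference of 1.15 (SE 0.273, adjusted p = 0.51, unadjusted p = 0.00774), higher in 2 of 2 fractions. The limma fit called 0 probe sets in either direction at an adjusted p under 0.05, and 210 higher and 225 lower at an unadjusted p under 0.05. The 1 residual degree of freedom is taken up by the interaction. These p-values thus set a mean difference against the disagreement between fractions, moderated by that of all probe sets. They do not say whether other cultures would show the difference.

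The other 2 probe sets of CYP3A5 are annotated to CYP3A43 as well and gave no measure of the total RNA difference. Probe set 37124_i_at read 5.35 and 5.08 in polysomal RNA of RBM35A+ and RBM35A- cells, a difference of 0.27, but 3.08 and 3.11 in total RNA, both under the floor. Probe set 37125_f_at stayed between 3.00 and 4.99 and was under the floor on all arrays. The total RNA difference of CYP3A5 therefore rests on 1 probe set, and its RBM35A- value lies close to the floor. With a floor of 6 that difference was 1.14 and the difference of differences −0.58. IDs ending in _i_at, _f_at, _g_at, _r_at or _s_at mark probe sets designed to similar sequences or under relaxed selection rules. Probe sequences were not used here, so hybridization of 38229_at with other CYP3A transcripts or pseudogenes was not tested.

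The 7 probe sets of CYP3A4 and CYP3A7 lay between 2.22 and 3.10 on all arrays, near the lowest value of any probe set (2.22). CYP3A4, the main adult form, has 3 probe sets, which read at most 3.10 in polysomal and 2.64 in total RNA. Those of the fetal form CYP3A7 read at most 2.67 in polysomal and 2.24 in total RNA, and all 4 are shared in annotation with its read-through gene. Such values do not separate a low level from none, and no difference is given for these genes.

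Among the efflux transporters, ABCB1 was slightly higher in RBM35A+ cells in both fractions. ABCB1 probe set 1575_at read 8.89 and 8.64 in polysomal RNA of RBM35A+ and RBM35A- cells (0.25), and 8.26 and 7.95 in total RNA (0.30). Probe set 1576_g_at, annotated to ABCB4 and ABCB1, read 7.45 and 7.30 in polysomal RNA (0.15), and 7.16 and 6.97 in total RNA (0.20). All 4 of these differences point the same way and are at most 1.50 times the SD of 1 probe set's difference. Both probe sets are annotated to ABCB1 and were read on the same arrays, so these are not 4 separate measurements. In the limma fit the mean difference of 1575_at was 0.28 (SE 0.0967, adjusted p = 0.523), higher in 2 of 2 fractions. The remaining ABCB1 probe set, 1682_s_at, lay between 2.46 and 3.06, and so gave no difference.

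ABCC10 gave unlike differences at its probe sets. Probe set 36732_at read 9.39 and 9.21 in polysomal RNA of RBM35A+ and RBM35A- cells (0.18), and 7.70 and 7.11 in total RNA (0.59 or 1.51-fold, rank 67 of 4346). Probe set 36731_g_at read 7.13 and 7.12 in polysomal RNA (0.01), and 6.79 and 6.64 in total RNA (0.15). The total RNA difference of 36732_at was just past 1.5-fold and was not matched in size by 36731_g_at. It fell short of 1.5-fold, at 0.54, once the trend of total RNA differences with the polysomal minus total difference was removed, and the mean of both probe sets was 0.37. Probe set 36730_at stayed under the floor, between 3.56 and 4.30. In the limma fit the mean difference of 36732_at was 0.39 (SE 0.131, adjusted p = 0.523).

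ABCC3, the basolateral exporter of conjugates, went in different directions in the fractions at 38261_at. This probe set read 7.73 and 7.94 in polysomal RNA of RBM35A+ and RBM35A- cells (−0.21), and 6.10 and 5.99 in total RNA (0.10). These differences were 1.10 and 0.514 times the SD of 1 probe set's difference. Its other probe set, 1930_at, read 5.61 and 5.58 in polysomal RNA (0.03) and lay under the floor in total RNA, at 4.27 and 4.49. ABCC5, the exporter of nucleotide analogues, was measured by 1933_g_at in polysomal RNA alone, at 7.28 and 7.22 (0.05). In total RNA it read 4.95 and 4.59, under the floor, and its 2 other probe sets lay between 2.69 and 2.99 on all arrays. ABCC2, the apical exporter of conjugates, has 1 probe set, which lay between 2.26 and 2.42.

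In polysomal RNA, 0 of the 9 member probe sets with a value passed 1.5-fold in either direction, against 2.41% of all probe sets. In total RNA, 2 of 6 were at least 1.5-fold higher in RBM35A+ cells, against 1.59% of all probe sets, and 1 of 6 was at least 2-fold higher, against 0.207%. Those were CYP3A5 38229_at and ABCC10 36732_at, and CYP3A5 alone at 2-fold. The shares over all probe sets include lower bounds, while both values of each member probe set counted lay at the floor or above. The 9 polysomal differences had a median of 0.15 with 8 above 0, beside a median of 0.02 over all probe sets with 54.6% above 0. Of these 8, ABCC3 1930_at, ABCC5 1933_g_at and ABCC10 36731_g_at were close to 0 (0.03, 0.05 and 0.01). They fell to −0.01, −0.02 and −0.01 once the trend with the polysomal minus total difference was removed. The 6 total RNA differences had a median of 0.25 with 6 above 0, beside a median of 0.00 over all probe sets with 49.0% above 0. These probe sets share genes and targets, so they are not separate measurements. The genes were also chosen with earlier results of these data known, so setting their counts beside these shares is no test of the group.

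**Figure D2:**
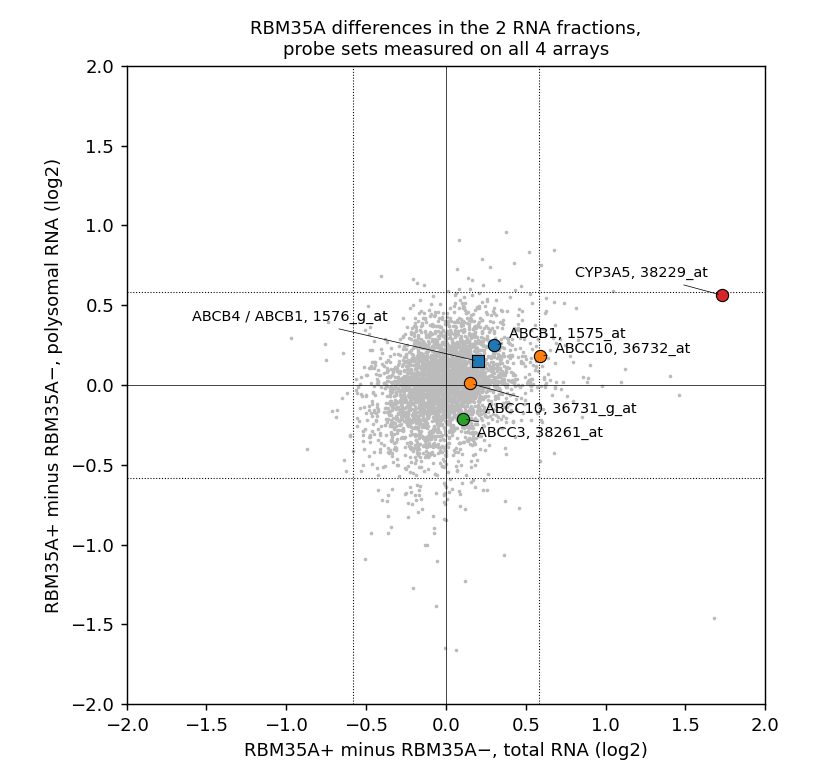
Log2 difference between RBM35A+ and RBM35A- cells in polysomal RNA (y axis) against that in total RNA (x axis), with 1 array per group. Grey points are the 3835 probe sets measured on all 4 arrays, coloured circles are members annotated to 1 gene, the square is the probe set of ABCB4 and ABCB1, and dotted lines mark 1.5-fold. CYP3A5 lies at 0.56 in polysomal and 1.73 in total RNA, apart from the other members, which lie between −0.21 and 0.25 in polysomal and between 0.10 and 0.59 in total RNA.

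The RBM35A difference was smaller or more negative in polysomal than in total RNA at each of the 6 member probe sets measured on all 4 arrays, while 49.6% of the 3991 probe sets with this value were above 0. Unlike these members, some of the 3991 rest on lower bounds, since 3835 probe sets were measured on all 4 arrays. The difference of differences was −1.17 for CYP3A5, −0.41 and −0.14 for the ABCC10 probe sets 36732_at and 36731_g_at, and −0.32 for ABCC3. It was −0.05 for both ABCB1 probe sets. CYP3A5 was the 1 member at −1 or less, against 0.476% of the 3991 probe sets, and the SD of 1 probe set for this quantity was 0.239. No test of this interaction was made because no residual degree of freedom remains once it is fitted. The 5′ controls for beta-actin and GAPDH differed by −0.86 and −0.79 between the RBM35A+ and RBM35A- polysomal arrays, against −0.05 and −0.03 in total RNA, and the part of this in the polysomal differences was not tested.

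All 6 member probe sets measured on all 4 arrays read higher in polysomal than in total RNA in both RBM35A states, as did 48.3% of the 3835 probe sets so measured. CYP3A5 was 1.42 higher in RBM35A+ cells and 2.59 higher in RBM35A- cells (rank 55 of 4634). ABCC10 36732_at was 1.69 higher in RBM35A+ cells and 2.10 higher in RBM35A- cells, and 36731_g_at was 0.34 and 0.48 higher. ABCC3 38261_at was 1.64 higher in RBM35A+ cells and 1.95 higher in RBM35A- cells. These probe sets thus lay above total RNA by widely different amounts, also within ABCC10.

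For ABCB1, the polysomal value of 1575_at exceeded the total RNA value by 0.63 in RBM35A+ and 0.68 in RBM35A- cells. The shared probe set 1576_g_at exceeded it by 0.28 in RBM35A+ and 0.33 in RBM35A- cells. The 3 probe sets under the floor in total RNA entered only through the polysomal arrays, so they had to read higher there, and they give lower bounds. The bound was 2.28 in RBM35A+ and 2.22 in RBM35A- cells for ABCC5, the largest of these bounds. It was 0.61 and 0.58 for ABCC3 1930_at, and 0.35 and 0.08 for the CYP3A43 and CYP3A5 probe set.

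Of the 6 member probe sets measured on all 4 arrays, 4 were at least 1.5-fold higher in polysomal RNA in RBM35A+ cells and 4 in RBM35A- cells, against 25% and 24.7% of all probe sets so measured. The fractions were normalized apart from each other, and the SD of 1 probe set for this comparison was 0.785 in RBM35A+ and 0.712 in RBM35A- cells, much wider than for the RBM35A differences. Among these 6, CYP3A5 in RBM35A- cells lay at 3.64 times that SD and the other values under 3 times. The fraction differences also stand beside the lower 5′ control signal of the polysomal arrays, whose part was not tested.

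**Figure D3:**
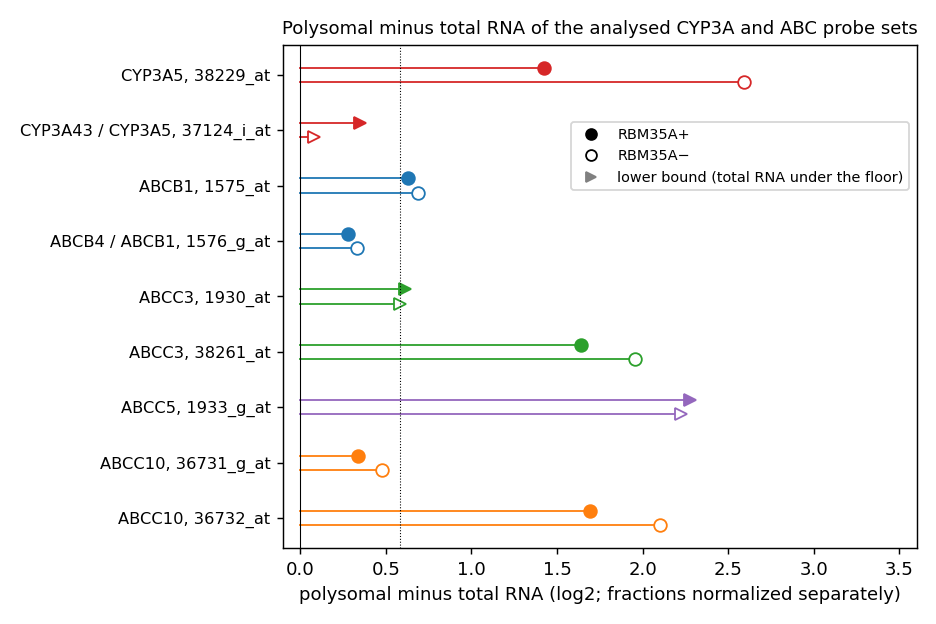
Polysomal minus total RNA (log2, x axis) for the 9 analysed member probe sets (rows), with filled symbols for RBM35A+ and open symbols for RBM35A- cells, 1 array per group. Triangles are lower bounds where total RNA lay under the floor, which can only lie to the right of 0, and the dotted line marks 1.5-fold. The circles also lie to the right of 0, and CYP3A5 has the widest gap between the states, at 1.42 in RBM35A+ and 2.59 in RBM35A- cells.

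The genes whose 4 values, centred on their mean, lay nearest to those of CYP3A5 were MAPRE3, MDC1 and DDX11, at Euclidean distances of 0.462, 0.673 and 0.719 over the 4 arrays. MAPRE3, a microtubule end-binding protein, read 9.14 and 9.09 in polysomal RNA of RBM35A+ and RBM35A- cells, and 7.63 and 6.23 in total RNA. MDC1, a DNA damage checkpoint mediator, read 8.90 and 8.69 in polysomal RNA, and 7.12 and 6.26 in total RNA. DDX11, a DNA helicase, read 10.50 and 10.46 in polysomal RNA and 8.75 and 7.85 in total RNA, at a probe set with a shared-sequence ID. Like CYP3A5, each of the 3 read higher in polysomal than in total RNA, and their RBM35A difference was larger in total than in polysomal RNA. This likeness follows from how the 3 genes were chosen and is no separate result.

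Of 30 other ABC transporter genes on the array 7 reached the floor, each represented by its brightest probe set. None passed 1.5-fold in polysomal RNA (0 of 7, against 2.06% of genes) or in total RNA (0 of 6, against 2.2% of genes). The median difference was 0.11 in polysomal RNA with 5 of 7 above 0, and 0.13 in total RNA with 6 of 6 above 0, beside medians of 0.02 and 0.00 over all genes. Over all probe sets, 54.6% were above 0 in polysomal RNA and 49.0% in total RNA. The 6 total RNA values ran from 0.06 to 0.39 on 1 pair of arrays, without a replicate check. The peroxisomal transporter ABCD3 was highest in polysomal RNA at 0.47, followed by the antigen peptide transporter TAP1 at 0.40. The translation-related ABCF1 was highest in total RNA at 0.39, while ABCF3 was lowest in both, at −0.13 in polysomal and 0.06 in total RNA. The chloride channel CFTR was at 0.23 and 0.20, at a probe set with a shared-sequence ID. ABCC1, ABCC4 and ABCG2, the other efflux pumps best known for drug resistance, stayed under the floor.

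Of 18 other cytochrome P450 genes and electron donors 11 reached the floor, and at least 1 passed 1.5-fold. CYP1A1, the aryl hydrocarbon-inducible P450, read 5.94 in RBM35A+ and 6.78 in RBM35A- cells in polysomal RNA (−0.84, 1 of 11 genes lower, against 1.3% of genes), and 6.48 and 6.49 in total RNA (−0.01). POR, the reductase that donates electrons to microsomal P450s, had the highest measured difference in polysomal RNA at 0.36, with 0.15 in total RNA. The list's median was 0.14 in polysomal RNA and 0.07 in total RNA. CYP2A13 was at 0.33 or more in polysomal RNA and highest in total RNA, at 0.58 or more, since its RBM35A- values lay under the floor, so whether it passed 1.5-fold is not known. CYP2J2, an arachidonic acid epoxygenase, was lowest in total RNA at −0.12. The ω-hydroxylase CYP4F12 was at 0.17 in polysomal and 0.53 in total RNA. The probe sets of CYP1A1, CYP2A13 and CYP2J2 have IDs that mark similar sequences or relaxed selection rules. CYP2C8, CYP2D6 and CYP2E1 stayed under the floor.

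Of 18 regulators of CYP3A and ABCB1 on the array 10 reached the floor. In polysomal RNA 0 of 10 passed 1.5-fold, against 2.06% of genes, and in total RNA 0 of 9, against 2.2% of genes. The median difference was −0.02 in polysomal and −0.13 in total RNA. RXRA, the partner of PXR on DNA, read 7.64 in RBM35A+ and 7.63 in RBM35A- polysomal RNA, and 6.91 in RBM35A+ and 6.92 in RBM35A- total RNA. VDR, the vitamin D receptor, which also induces CYP3A genes in gut, was highest in polysomal RNA at 0.10 and stood at −0.33 in total RNA. The oxidative stress factor NFE2L2 was lowest in polysomal RNA at −0.51. CEBPB was lowest in total RNA at −0.48, with −0.45 in polysomal RNA, and CEBPA was highest in total RNA at 0.31, with 0.00 in polysomal RNA. The probe sets of VDR and CEBPA have IDs that mark similar sequences or relaxed selection rules. The receptors NR1I3 and NR3C1 stayed under the floor, and PXR itself (NR1I2) was not analysed here.

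Of 27 conjugating enzymes 13 reached the floor. In polysomal RNA 0 of 12 passed 1.5-fold, against 2.06% of genes, and in total RNA 0 of 11, against 2.2% of genes. The medians were 0.03 in polysomal and −0.03 in total RNA. MGST2 was highest in polysomal RNA at 0.26 and MGST3 lowest at −0.42, both being microsomal glutathione transferases. TPMT, which methylates thiopurine drugs, was highest in total RNA at 0.54, and GSTZ1 was lowest at −0.29. All 5 UGT2B genes on the array stayed under the floor. Of 16 uptake transporters 1 reached it: SLC22A5, the carnitine transporter, at 5.27 and 5.04 in polysomal RNA (0.23) and under the floor in total RNA. None of these gene lists held a measured difference past 1.5-fold in total RNA, and the CYP2A13 bound of 0.58 leaves its side unknown.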

How the data were processed

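Polysomal and total RNA of RBM35A+ and RBM35A- LS180 cells was measured on 4 Affymetrix HG-U95Av2 arrays, 1 per group, from 10 µg of RNA each. The authors deposited log2 probe set values that GCRMA had produced, according to the submitters' processing notes, with no version given in the sources used here. The method corrects background by probe base composition. Sorted values were equal within each fraction to 6.61e-06 or better and differed by up to 0.227 between fractions, so each pair was normalized apart, which would remove a shift common to most probe sets of either array.

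Of 12626 probe sets, 67 controls were left out; 10943 had 1 gene symbol, 546 several and 1070 none in the array annotation, and symbols were updated by gene ID through a RefSeq table of GRCh38.p14. Values under 5 were raised to 5, and the 4710 probe sets at 5 or above on at least 1 array were analysed (3588 genes, each by its brightest probe set on average, for gene lists). Differences with both values under the floor were not given, and those with 1 such value are lower bounds; in the limma fit such values were set to the floor. Differences were counted at 1.5-fold and 2-fold, and at 1 (log2) for the difference of differences. The additive model used lmFit and eBayes of limma 3.58.1 (R 4.3.3), p-values being adjusted by Benjamini-Hochberg over all probe sets; calculations were tested on simulated data. Promoter windows were aligned with Biopython 1.88.

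Named genes were all member probe sets with their values, every listed gene past 1.5-fold, the highest and lowest of each list in each fraction, and the 3 genes nearest in profile to the leading member. ABCC1, ABCC4, ABCG2, TAP1, CFTR, CYP4F12, CYP2C8, CYP2D6, CYP2E1, RXRA, NR1I3, NR3C1 and the UGT2B genes were named after their values were seen. The members and lists were chosen with earlier results of these data known. Alternatives were other floors, joint quantile normalization, removal of a trend with fraction, the mean of a gene's probe sets, and omission of shared-sequence probe sets.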

Additional observations from a re-analysis of the deposited data

Results flagged for a closer look

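ABCC3 38261_at had differences of opposite sign in the fractions, −0.21 in polysomal RNA and 0.10 in total RNA, with 1 array per group. The difference between the fractions was not tested, and both values are close to or below the SD of 1 probe set's difference (0.192 in polysomal RNA and 0.203 in total RNA).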

How the results depend on the processing

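The count of 2 members at least 1.5-fold higher in total RNA became 1 with the trend on the polysomal minus total difference removed (ABCC10 36732_at at 0.54) and 1 when the probe sets with a single symbol were averaged per gene (ABCC10 at 0.37). CYP3A5 stayed past 2-fold in total RNA under every alternative run, from 1.14 with a floor of 6 to 1.74 with the 4 arrays normalized together. The 1 member at −1 or less for the difference of differences became 0 with a floor of 6, where CYP3A5 was at −0.58. A floor of 6 raises the RBM35A- total RNA value of CYP3A5, which shows the cause of both changes. The count of members at least 1.5-fold higher in polysomal RNA in both states was 5, and 4 to 7 over the alternatives, but it includes members that entered only through the polysomal arrays. No member passed 1.5-fold in polysomal RNA (0) under any alternative run. The limma fit, which was not repeated after trend removal or without shared-sequence probe sets, called 0 members and 0 probe sets at an adjusted p under 0.05 in each of its settings; the unadjusted counts were 350 to 515. Of 215 further values of single probe sets or genes, 10 moved by more than the SD of 1 probe set. The other 205 were counted as the same, and 0 as reversed, but small values near 0 could change sign within this count. It also holds the limma mean difference of CYP3A5, which fell from 1.15 to 0.85 with a floor of 6. With the trend removed, the polysomal differences of ABCC3 1930_at, ABCC5 1933_g_at and ABCC10 36731_g_at turned from 0.03, 0.05 and 0.01 to −0.01, −0.02 and −0.01. The limma mean difference of ABCC3 1930_at turned from 0.01 to −0.09 with a floor of 4. No paired analysis was possible because each group has 1 array with no replicate number in the labels, and for the same reason no replicate could be left out.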
